A study of Mus musculus with 30 samples.

Results

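The transcripts of 5 transcription factor genes that act when mesoderm turns into endothelium, Etv2, the 3 SoxF genes Sox7, Sox17 and Sox18, and Mef2c, were followed through the differentiation of mouse embryonic stem cells (ESC) to blood progenitors. The genes were taken by symbol, and all 5 had a row among the 14685 genes of the expression table. RNA-seq was carried out on 30 samples of the E14 ESC line, in 5 populations and 3 genotypes with 2 biological replicates each. The genotypes were wild type (WT), Sp1_deltaDBD, whose truncated Sp1 protein lacks the DNA-binding domain and which the study describes as a hypomorph, and Sp3KO, a knockout of Sp3. All 3 genotypes share the E14 background, and nothing in the labels says how many independent clones of a mutant were used. The comparisons asked how the loss of Sp3, or of the DNA-binding domain of Sp1, alters gene expression at each step.

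ESC were kept on feeder cells and then grown without them before differentiation. Flk1+ cells, the mesoderm that holds the hemangioblast, were isolated from embryoid bodies with magnetic beads and an antibody to Flk1. After 2 days of blast culture they had given rise to the 3 sorted populations, which all carry KIT. HE1, the early hemogenic endothelium, was taken as CD41- and Tie2+, HE2 had gained CD41 and kept Tie2, and Progenitor had CD41 but no longer Tie2. The methods let the time in embryoid bodies vary with the cell line. Flk1 staining of WT and of each mutant was done on a shared day, but whether the cells used for RNA-seq were taken on that day is not given in the sources used here. Levels are given in FPKM (fragments per kilobase of transcript, scaled to the mapped fragments of the sample), a unit that corrects for transcript length, so that genes can be set side by side. The number of reads behind each value is unknown.

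ETV2 is an ETS factor that is made for a short time in mesoderm and switches on endothelial and blood genes such as Tal1, Fli1, Tek and Cdh5. SOX7, SOX17 and SOX18 are close relatives that bind DNA through an HMG box. They act in endothelial and arterial specification, and in hemogenic endothelium they are made before blood cells emerge. MEF2C is a MADS-box factor of the heart, vessels and megakaryocytes, and class IIa histone deacetylases repress MEF2 proteins. Sp1 and Sp3 are zinc finger factors of nearly all cells that bind GC boxes and CACCC boxes.

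Sp3 followed its genotype label. It lay at 3.38 to 7.79 FPKM in the 10 Sp3KO samples and at 25.9 to 58.1 FPKM in the WT samples. Sp1 lay at 14.8 to 40.5 FPKM in Sp1_deltaDBD and at 24.9 to 52.4 FPKM in WT, with overlap in HE1. A level over the whole gene does not check a truncation, so the Sp1_deltaDBD label was not checked. The gate genes were read against the sort labels as well. Kdr, which encodes Flk1, was at most 0.322 FPKM in ESC and 165 to 257 FPKM in Flk1+ cells. Tek, which encodes Tie2, was at 135 to 234 FPKM in HE1 and 5.95 to 17.5 FPKM in Progenitor. Itga2b, which encodes CD41, was at 34.8 to 83.3 FPKM in HE1, although HE1 was gated as CD41-, against 84.6 to 147 FPKM in HE2. The median absolute log2 difference between replicates over 12388 genes was 0.0861 to 0.156 in Sp3KO, 0.117 to 0.277 in WT and 0.207 to 0.325 in Sp1_deltaDBD. Replicates of Sp3KO lay closest to each other in every population but Flk1+ cells, where WT was at 0.117 and Sp3KO at 0.12.

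Etv2 (ENSMUSG00000006311.8) lies on the minus strand of chromosome 7, from 30633616 to 30635852 (GRCm38, GENCODE M21). Sox7 lies on chromosome 14 from 63943673 to 63950732, Sox17 on chromosome 1 from 4490931 to 4497354, Sox18 on chromosome 2 from 181669836 to 181671640, and Mef2c on chromosome 13 from 83504034 to 83667080. Sox17 is overlapped by Gm37587 on the other strand. Since the use of strand in the counting was not stated, reads of these overlapping genes cannot be told apart. The other 4 genes overlap no annotated gene.

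The 250 bases before the transcription start, as RefSeq gives it for GRCm38.p6, are shown for 2 starts, since these genes were compared in cells that lack Sp3 or the DNA-binding domain of Sp1. Both strands were searched for the GC box (GGGCGG, or CCGCCC on the other strand) and the CACCC box (CCACCC, or GGGTGG on the other strand), and capitals mark a match. The Etv2 window, at chr7:30635853-30636102 on the minus strand, holds neither motif. Of the 3 Mef2c starts, that with the window chr13:83523406-83523655 on the plus strand holds 1 GC box and no CACCC box.
Etv2: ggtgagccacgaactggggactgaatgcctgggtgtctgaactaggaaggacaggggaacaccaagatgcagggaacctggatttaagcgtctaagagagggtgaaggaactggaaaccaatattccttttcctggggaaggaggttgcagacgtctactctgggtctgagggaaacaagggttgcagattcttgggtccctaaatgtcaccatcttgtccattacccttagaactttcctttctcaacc
Mef2c: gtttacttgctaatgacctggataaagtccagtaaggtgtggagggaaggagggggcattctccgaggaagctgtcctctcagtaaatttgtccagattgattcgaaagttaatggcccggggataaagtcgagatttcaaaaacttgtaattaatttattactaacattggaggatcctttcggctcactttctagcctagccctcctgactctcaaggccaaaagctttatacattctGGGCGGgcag
The Etv2 window has 3 CpG dinucleotides and the Mef2c window shown has 6. The windows of the other 2 Mef2c starts, at chr13:83503784-83504033 and chr13:83573357-83573606, each hold 1 CACCC box and no GC box. No window holds both motifs, so no matches overlap. Among 32851 RefSeq promoter windows of this length, 32.7% hold a GC box and 28.1% a CACCC box. A match to 6 letters is not a binding site, and its absence from a window this short does not bear on binding elsewhere. The windows of Sox7, Sox17 and Sox18 were not analysed here.

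In WT cells Etv2 peaked in Flk1+ cells, the 3 SoxF genes in HE1 and Mef2c in Progenitor. Etv2 was at 0.860 and 0.287 FPKM in ESC, at 31.4 and 17.0 FPKM in Flk1+ cells, and between 2.54 and 9.69 FPKM in the later populations. Etv2 was thus highest in Flk1+ cells, and no later WT sample reached the level of either Flk1+ sample. By limma on log2(FPKM + 0.1), Etv2 rose by 5.25 (SE 0.46, adjusted p = 1.39e-08) from ESC to Flk1+ cells, and fell by 1.81 (adjusted p = 0.00246) from Flk1+ cells to HE1. Folds are given as the ratio of the group means of FPKM, each with 0.1 added, and differ a little from the log2 differences, which average the logs. By this ratio Etv2 was 36-fold higher in Flk1+ cells than in ESC. From HE1 to HE2 it differed by 0.47 (adjusted p = 0.516), and from HE2 to Progenitor it fell by 1.57 (adjusted p = 0.0258). The fall of Etv2 into HE1 was lost without Flk1 WT replicate 1 (adjusted p = 0.0502). Its fall into Progenitor was lost without HE2 WT replicate 1, HE2 WT replicate 2 or Progenitor WT replicate 1 (adjusted p = 0.0816 to 0.177).

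Sox7 was already present in WT Flk1+ cells, at 8.05 and 8.03 FPKM. It peaked in HE1 at 39.1 and 44.9 FPKM, went down to 13.8 and 10.4 FPKM in HE2, and stood at 1.17 and 0.325 FPKM in Progenitor. All 4 steps of Sox7 passed the test, with log2 differences of 5.17, 2.37, -1.79 and -4.04 (SE 0.45, adjusted p = 1.31e-08, 0.000189, 0.00754 and 5.39e-06). Its fall from HE1 to HE2 was lost without HE2 WT replicate 2 (adjusted p = 0.0599).

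Sox17 shared this course at lower levels. It was at 0.692 and 0.651 FPKM in WT Flk1+ cells, at 11.1 and 13.2 FPKM in HE1, at 2.34 and 2.75 FPKM in HE2, and at 0.273 and 0.0801 FPKM in Progenitor. Sox17 was thus above 1 FPKM in HE1 and HE2 and below it in the other WT samples, and its 4 steps, of 2.89, 3.98, -2.21 and -3.35 on the log2 scale, passed the test (SE 0.38, adjusted p = 3.68e-06, 8.21e-08, 0.000532 and 7.76e-06).

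Sox18 was almost silent in WT Flk1+ cells and came up 1 step later than Sox7. It was at 0.309 and 0.459 FPKM in ESC and at 0.474 and 0.541 FPKM in Flk1+ cells, a difference of 0.34 (adjusted p = 0.581). In HE1 it reached 45.7 and 42.7 FPKM, a rise of 6.19 (SE 0.48, adjusted p = 5.34e-09), with a ratio of means of 73.0. It was at 25.4 and 35.9 FPKM in HE2, which did not pass the test against HE1 (-0.55, adjusted p = 0.462), and fell by 3.17 (adjusted p = 0.000136) to 2.88 and 3.69 FPKM in Progenitor. Sox18 thus stayed high in HE2, where Sox7 and Sox17 had fallen.

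Mef2c was the member with its peak in Progenitor. It was at 0.0142 and 0.00549 FPKM in WT ESC, at 0.281 and 0.749 FPKM in Flk1+ cells, at 7.41 and 6.74 FPKM in HE1, at 9.74 and 12.3 FPKM in HE2, and at 14.9 and 17.9 FPKM in Progenitor. The first 2 steps, of 2.37 and 3.66 on the log2 scale, passed the test (SE 0.37, adjusted p = 2.26e-05 and 1.41e-07), and those of 0.62 and 0.57 did not (adjusted p = 0.250 and 0.373), although the samples of neighbouring populations did not overlap. Its first step was lost with a pseudocount of 1 (0.57, adjusted p = 0.0805). In WT, 4, 5, 2 and 4 of the 5 members passed the test from ESC to Flk1+, Flk1+ to HE1, HE1 to HE2 and HE2 to Progenitor. Among all 14525 genes tested, 52.2%, 53.0%, 21.9% and 13.2% did so.

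**Figure D1:**
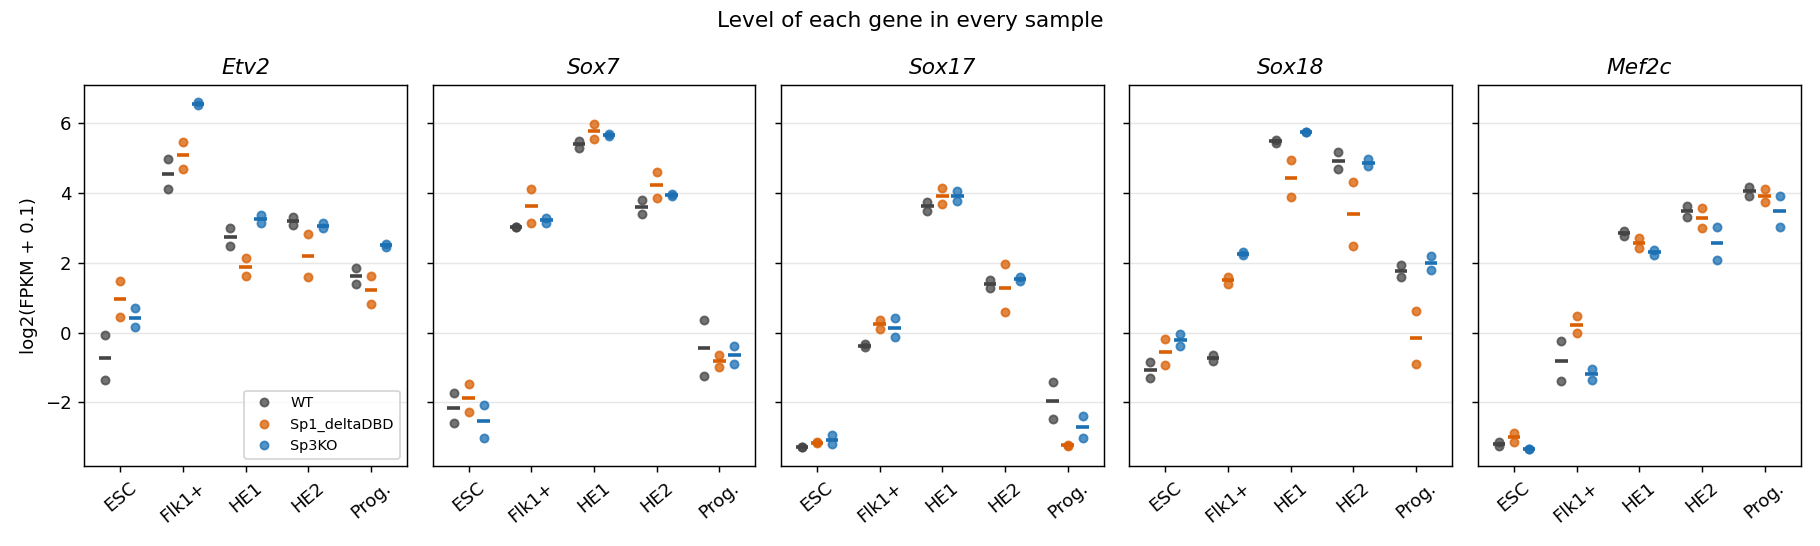
Levels of Etv2, Sox7, Sox17, Sox18 and Mef2c in each of the 30 samples, as log2(FPKM + 0.1) on the vertical axis against the population on the horizontal axis, coloured by genotype, with a bar at the mean of each pair of replicates. Etv2 peaks in Flk1+ cells, the 3 SoxF genes in HE1 and Mef2c in Progenitor, and the Sox18 points of both mutants in Flk1+ cells lie above the WT points.

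The order of the populations by mean FPKM held across genotypes for Sox7, which ran HE1, HE2, Flk1+, Progenitor, ESC, and for Mef2c, which ran Progenitor, HE2, HE1, Flk1+, ESC. The Sox18 order differed, since Flk1+ ranked below Progenitor in WT and above it in both mutants. For Sox17, ESC ranked above Progenitor in Sp1_deltaDBD and below it in WT and Sp3KO, all at low levels. Its Sp1_deltaDBD Progenitor values equal those of Mesp1 and Cer1 in the same samples, a floor shared by several genes. That rank, and the pair counted from it below, therefore compare values at the floor. For Etv2, HE1 ranked above HE2 in Sp3KO and below it in WT and Sp1_deltaDBD. Over the 5 members, the samples of 20 of 20 neighbouring pairs did not overlap in WT, 14 of 20 in Sp1_deltaDBD and 17 of 20 in Sp3KO. Over all genes tested, each in its own order, 50.7%, 44.5% and 57.8% of neighbouring pairs did not. In Sp1_deltaDBD the samples of neighbouring populations overlapped for Etv2 (HE2 and HE1, HE1 and Progenitor, Progenitor and ESC), Sox7 (HE2 and Flk1+) and Sox18 (HE1 and HE2, Progenitor and ESC). In Sp3KO they overlapped for Sox17 (Progenitor and ESC) and Mef2c (Progenitor and HE2, HE2 and HE1).

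The mutants were then compared with WT, and all comparisons with WT in a population share its 2 WT samples. Of 25 values of a member in a population, 4 passed the test in Sp1_deltaDBD and 2 in Sp3KO, and 8 and 4 had an unadjusted p under 0.05. In Flk1+ cells, 1 of 5 members passed in Sp1_deltaDBD, against 5.54% of all genes, and 2 of 5 in Sp3KO, against 12.6% of all genes. In ESC these counts were 1 of 5 against 6.06%, and 0 of 5 against 11.3%. In Progenitor they were 2 of 5 against 8.78%, and 0 of 5 against 8.65%. No member passed in HE1, against 10.0% and 10.9% of all genes, or in HE2, against 9.67% and 13.8%. In HE1, 1 member had an unadjusted p under 0.05 in Sp1_deltaDBD and 0 did in Sp3KO, and in HE2 these counts were 2 and 1. With 2 samples against 2, an exact permutation test cannot go below p = 0.333, so these calls rest on limma, which borrows the spread of the other groups and genes.

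Etv2 was highest in Sp3KO Flk1+ cells. Its level there was 96.1 and 90.2 FPKM (93.2 ± 4.22, mean ± SD, n = 2), against 31.4 and 17.0 FPKM in WT (24.2 ± 10.2) and 43.6 and 25.7 FPKM in Sp1_deltaDBD (34.7 ± 12.7). Both Sp3KO samples lay above all WT and Sp1_deltaDBD samples, and the last 2 groups overlapped. By limma Etv2 rose by 2.01 (SE 0.46, 95% interval 1.05 to 2.96, adjusted p = 0.00754) in Sp3KO Flk1+ cells, with a ratio of means of 3.84, and in Sp1_deltaDBD the difference was 0.54 (-0.42 to 1.49, adjusted p = 0.613). The rise in Sp3KO was lost without Flk1 WT replicate 2 (1.57, adjusted p = 0.138) or Flk1 Sp3KO replicate 1 (1.96, adjusted p = 0.0721). Between the mutants Etv2 differed by 1.47 (adjusted p = 0.0557).

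Outside Flk1+ cells, Etv2 passed the test in ESC of Sp1_deltaDBD. It was at 2.67 and 1.25 FPKM there, at 1.52 and 1.01 FPKM in Sp3KO ESC, and at 0.860 and 0.287 FPKM in WT ESC. All mutant ESC samples lay above both WT samples, and all were far below the Flk1+ level. The rise of 1.67 (SE 0.46, 95% interval 0.71 to 2.62, adjusted p = 0.0349) in Sp1_deltaDBD was lost with a pseudocount of 1 (0.89, adjusted p = 0.128), without ESC WT replicate 2 (1.01, adjusted p = 0.381) or without ESC Sp1_deltaDBD replicate 1 (1.15, adjusted p = 0.307). It was also lost in a fit of ESC alone (adjusted p = 0.166) and with weights per genotype (adjusted p = 0.0617). The difference of 1.13 in Sp3KO ESC did not pass (adjusted p = 0.121). Of 19 targets and partners of ETV2, 5 rose in Sp1_deltaDBD ESC (Tal1, Lmo2, Fli1, Rhoj and Elk3) and none fell, against 6.06% of all genes called. Most were low: Fli1 was at 0.41 against 0.0175 FPKM in WT, Rhoj at 0.166 against 0.00846 FPKM and Tal1 at 1.06 against 0.331 FPKM. Lmo2 was under 1 FPKM in both genotypes, and Elk3 was at 3.28 against 1.48 FPKM. The link of these calls to Etv2 was not tested. The 6 mesenchymal and feeder markers in the table summed to 12.7 to 15.7 FPKM in Sp1_deltaDBD ESC, against 5.66 to 5.77 FPKM in WT. Their median log2 difference was 1.82, although none passed, and their part in the Etv2 result was not tested. In HE1 Etv2 was at 5.43 and 7.80 FPKM in WT, at 4.26 and 2.94 FPKM in Sp1_deltaDBD and at 8.62 and 10.2 FPKM in Sp3KO, so the 3 genotypes did not overlap. Neither mutant passed against WT there (-0.86, adjusted p = 0.262, and 0.52), and the difference of 1.38 between the mutants had an adjusted p of 0.0504.

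Sox18 rose in Flk1+ cells of both mutants, before the step at which WT cells switched it on. It was at 0.474 and 0.541 FPKM in WT, at 2.93 and 2.5 FPKM in Sp1_deltaDBD and at 4.82 and 4.55 FPKM in Sp3KO. None of these 3 pairs overlapped. The rise was 2.21 (SE 0.48, 95% interval 1.20 to 3.22, adjusted p = 0.00914) in Sp1_deltaDBD, with a ratio of means of 4.63, and 2.98 (1.97 to 3.99, adjusted p = 0.000835) in Sp3KO, with a ratio of 7.88. The mutants differed from each other by 0.77 (-0.24 to 1.78, adjusted p = 0.390). In Sp3KO the rise of Sox18 passed in the 4 fits that each left out 1 of these samples and in the other fits that were run. In Sp1_deltaDBD it was lost without Flk1 WT replicate 1 (2.13, adjusted p = 0.0762), Flk1 WT replicate 2 (2.29, adjusted p = 0.0659) or Flk1 Sp1_deltaDBD replicate 1 (2.1, adjusted p = 0.0795).

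In the later populations the mutants parted. In Progenitor, Sox18 was at 2.88 and 3.69 FPKM in WT, at 1.43 and 0.434 FPKM in Sp1_deltaDBD and at 3.37 and 4.49 FPKM in Sp3KO. Both Sp1_deltaDBD samples lay below all others, and Sox18 fell by 1.90 on the log2 scale (SE 0.48, 95% interval -2.91 to -0.89, adjusted p = 0.0182), with means 3.29-fold lower by their ratio. The fall was lost with a pseudocount of 1 (-1.19, adjusted p = 0.0512) and without Progenitor Sp1_deltaDBD replicate 2 (-1.14, adjusted p = 0.186), Progenitor WT replicate 1 (adjusted p = 0.0558) or Progenitor WT replicate 2 (adjusted p = 0.0992). It was also lost in a fit of Progenitor alone (adjusted p = 0.124).

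In HE2, Sox18 was at 25.4 and 35.9 FPKM in WT, at 19.5 and 5.44 FPKM in Sp1_deltaDBD and at 27.1 and 31.0 FPKM in Sp3KO. In HE1 it was at 45.7 and 42.7 FPKM, at 30.8 and 14.6 FPKM, and at 52.9 and 53.2 FPKM. The Sp1_deltaDBD samples were the lowest in both, although they differed widely from each other. Replicate 2 was the lower Sp1_deltaDBD sample in HE1, HE2 and Progenitor alike. Over all genes compared, deviations of same-numbered Sp1_deltaDBD samples from their group means correlated at 0.451 to 0.649 between these populations. The low Sox18 values in these populations may therefore not be independent of each other. Neither difference from WT passed the test (HE1, -1.05, adjusted p = 0.184, and HE2, -1.54, adjusted p = 0.0501). In HE2 the difference passed with a pseudocount of 1 (-1.44, adjusted p = 0.0176) and without HE2 Sp1_deltaDBD replicate 1 (-2.45, adjusted p = 0.00318). In Sp3KO, Sox18 differed from WT by 0.26 in HE1, -0.06 in HE2 and 0.25 in Progenitor, none of which passed.

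Set against each other, the mutants differed in 3 of 25 values, and 7 had an unadjusted p under 0.05. Sox18 was higher in Sp3KO than in Sp1_deltaDBD by 2.14 (adjusted p = 0.00702) in Progenitor and by 1.48 (adjusted p = 0.0427) in HE2. The Progenitor difference was lost without Progenitor Sp1_deltaDBD replicate 2 (1.38, adjusted p = 0.0956) or Progenitor Sp3KO replicate 2 (adjusted p = 0.0696). The HE2 difference was lost without HE2 Sp1_deltaDBD replicate 2 (0.57, adjusted p = 0.533), HE2 Sp3KO replicate 1 (adjusted p = 0.108) or HE2 Sp3KO replicate 2 (adjusted p = 0.200). In fits of a single population both differences were lost (adjusted p = 0.0826 in Progenitor and 0.136 in HE2). The third value was Mef2c in Flk1+ cells, described with that gene. Of all genes, 9.67%, 7.39%, 13.6%, 15.9% and 11.6% differed between the mutants in ESC, Flk1+, HE1, HE2 and Progenitor, against 0, 1, 0, 1 and 1 of the 5 members.

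The step of Sox18 from Flk1+ cells to HE1 was smaller on the log2 scale in both mutants than in WT. It went from 0.474 and 0.541 FPKM to 45.7 and 42.7 FPKM in WT, from 4.82 and 4.55 FPKM to 52.9 and 53.2 FPKM in Sp3KO, and from 2.93 and 2.5 FPKM to 30.8 and 14.6 FPKM in Sp1_deltaDBD. The difference of the steps, mutant minus WT, was -3.26 (SE 0.68, adjusted p = 0.0182) in Sp1_deltaDBD and -2.72 (adjusted p = 0.0303) in Sp3KO. Both were lost in fits that left out 1 sample, the first without either Flk1 WT replicate, HE1 WT replicate 1, Flk1 Sp1_deltaDBD replicate 1 or HE1 Sp1_deltaDBD replicate 2 (adjusted p = 0.0633 to 0.104), and the second in all 8 that removed a sample of its 4 groups (adjusted p = 0.0581 to 0.110) and with a pseudocount of 1 (-1.66, adjusted p = 0.0716). No other member passed in any of the 8 step differences. Of all genes, 1.53% and 4.02% passed for the step from Flk1+ to HE1 in Sp1_deltaDBD and Sp3KO, 1.74% and 1.48% for the step from ESC to Flk1+, 0.00688% and 0% for that from HE1 to HE2, and 0.0207% and 0.0275% for that from HE2 to Progenitor.

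**Figure D2:**
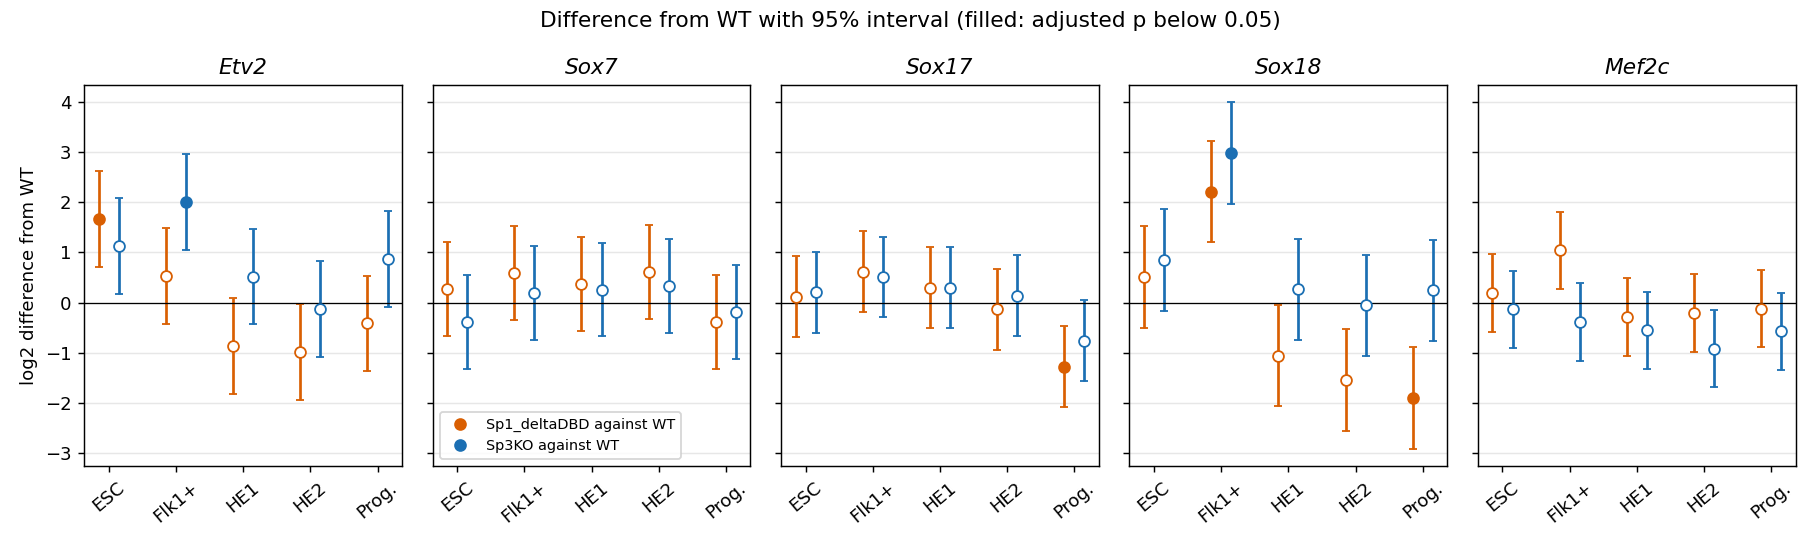
Differences between each mutant and WT on the log2(FPKM + 0.1) scale (vertical axis) in the 5 populations (horizontal axis) for each of the 5 genes, with 95% intervals from limma; filled points have an adjusted p under 0.05. The filled points are Etv2 in Sp3KO Flk1+ cells (2.01) and in Sp1_deltaDBD ESC (1.67), Sox18 in Flk1+ cells of both mutants (2.21 and 2.98) and in Sp1_deltaDBD Progenitor (-1.90), and Sox17 in Sp1_deltaDBD Progenitor (-1.27).

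Sox7, the SoxF gene most abundant in Flk1+ cells, passed no test against WT. In Flk1+ cells it was at 8.05 and 8.03 FPKM in WT, at 8.72 and 17.0 FPKM in Sp1_deltaDBD and at 8.66 and 9.66 FPKM in Sp3KO. In HE1 these values were 39.1 and 44.9, 46.6 and 62.7, and 51.4 and 49.2 FPKM. Mutant samples of Sox7 thus lay above WT in both populations, by no more than the test could tell from the spread. Over the 5 populations its differences ran from -0.38 to 0.62 in Sp1_deltaDBD and from -0.39 to 0.34 in Sp3KO, none of them with an unadjusted p under 0.05, and the 95% intervals reached from -1.31 to 1.55 and from -1.33 to 1.27.

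Sox17 passed in 1 comparison, at a level close to 0. In Progenitor it was at 0.273 and 0.0801 FPKM in WT, at 0.00595 and 0.00816 FPKM in Sp1_deltaDBD and at 0.0234 and 0.0911 FPKM in Sp3KO. Both Sp1_deltaDBD values are the floor that Mesp1 and Cer1 share in these samples. Sox17 fell by 1.27 (95% interval -2.08 to -0.47, adjusted p = 0.0441) in Sp1_deltaDBD. With a pseudocount of 1 it was -0.22 (adjusted p = 0.646), and the call was also lost without Progenitor WT replicate 1 (-0.75, adjusted p = 0.370), Progenitor Sp1_deltaDBD replicate 1 (adjusted p = 0.144) or Progenitor Sp1_deltaDBD replicate 2 (adjusted p = 0.104). Weights per genotype (adjusted p = 0.104) and a culture correlation (adjusted p = 0.0631) ended it too, and in a fit of Progenitor alone Sox17 did not pass the filter on low values. In HE1, where Sox17 was most abundant, it was at 11.1 and 13.2 FPKM in WT, 17.4 and 12.6 FPKM in Sp1_deltaDBD and 16.5 and 13.4 FPKM in Sp3KO. Those values did not pass.

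The makeup of the SoxF family followed from these levels. In WT Flk1+ cells Sox7 made up 87.4% and 87.1% of the summed SoxF FPKM and Sox18 5.14% and 5.86%. Sox18 made up 23.2% and 12.1% in Sp1_deltaDBD Flk1+ cells, and 32.8% and 30.3% in Sp3KO. Its share was therefore higher in all 4 mutant samples than in either WT sample. In HE1 the Sox18 share was 47.7% and 42.4% in WT, 32.5% and 16.3% in Sp1_deltaDBD, and 43.8% and 46.0% in Sp3KO. In HE2 it was 61.1% and 73.1%, 41.4% and 25.7%, and 60.3% and 63.0%. In both hemogenic populations the Sp1_deltaDBD samples had the lowest Sox18 share, while the summed SoxF level in HE1 was 94.8 and 90.0 FPKM in Sp1_deltaDBD against 95.9 and 101 FPKM in WT. In HE2 this sum was 47.2 and 21.1 FPKM against 41.5 and 49.0 FPKM, so that 1 of the Sp1_deltaDBD samples was far below WT. These shares were not tested, since they derive from the levels above. HE1 and HE2 are not separate evidence here, since same-numbered Sp1_deltaDBD samples of the 2 had correlated deviations (0.649).

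**Figure D3:**
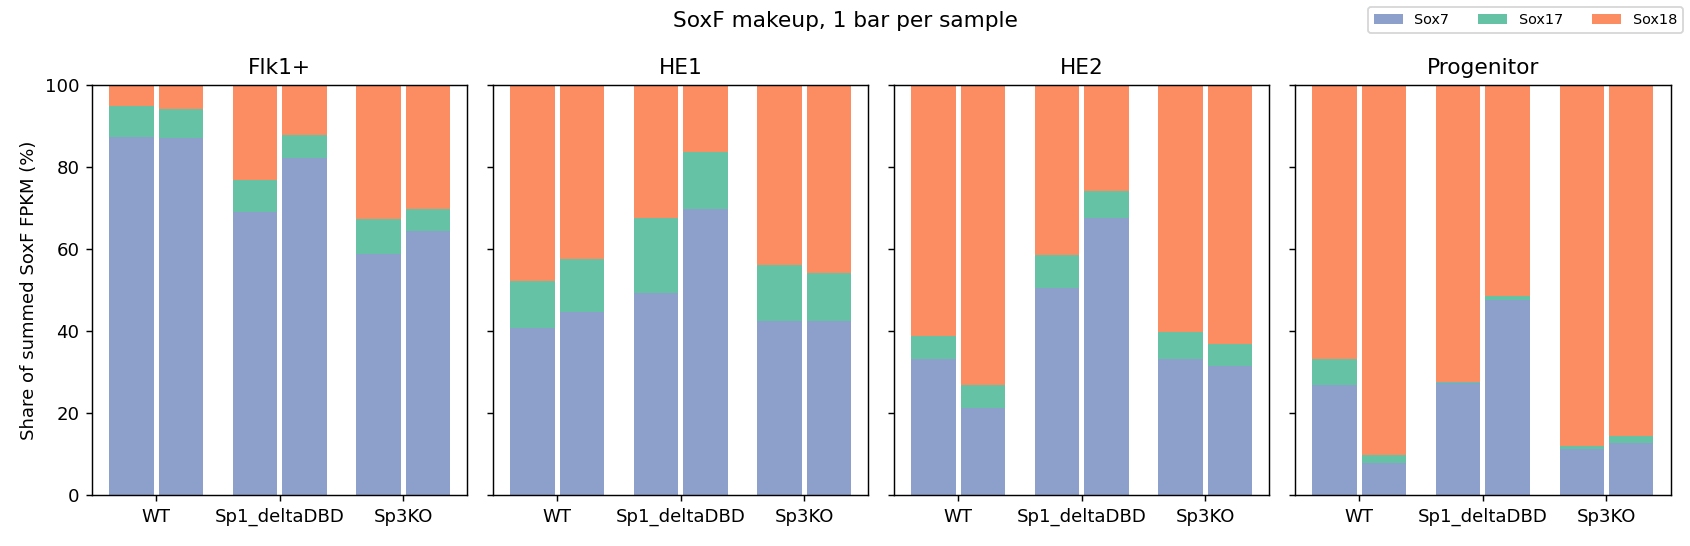
Share of the summed SoxF FPKM (vertical axis, percent) taken by Sox7, Sox17 and Sox18 in each sample of Flk1+ cells, HE1, HE2 and Progenitor, with 1 bar per sample, grouped by genotype. In Flk1+ cells the Sox18 share is 5.14% to 5.86% in WT and 12.1% to 32.8% in the mutants, and in HE2 it is 25.7% to 41.4% in Sp1_deltaDBD and 60.3% to 73.1% in the other samples.

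Mef2c differed between the mutants in Flk1+ cells, where it was low. It was at 0.281 and 0.749 FPKM in WT, at 0.887 and 1.29 FPKM in Sp1_deltaDBD and at 0.289 and 0.388 FPKM in Sp3KO. Both Sp1_deltaDBD samples were above all others, and WT and Sp3KO overlapped. By limma the difference, Sp3KO minus Sp1_deltaDBD, was -1.43 (adjusted p = 0.0229), with means 2.71-fold lower by their ratio, while the difference of Sp1_deltaDBD from WT was 1.04 (adjusted p = 0.113). The difference between the mutants was lost with a pseudocount of 1 (-0.64, adjusted p = 0.153) and without Flk1 Sp1_deltaDBD replicate 2 (-1.18, adjusted p = 0.263), Flk1 Sp3KO replicate 1 (adjusted p = 0.185) or Flk1 Sp3KO replicate 2 (adjusted p = 0.0728). A fit of Flk1+ cells alone also lost it (adjusted p = 0.0977).

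In the later populations, where Mef2c was abundant, no difference passed. In HE2 it was at 9.74 and 12.3 FPKM in WT, at 7.78 and 11.6 FPKM in Sp1_deltaDBD and at 4.09 and 8.07 FPKM in Sp3KO. In Progenitor it was at 14.9 and 17.9 FPKM, at 17.2 and 13.1 FPKM, and at 8.01 and 15 FPKM. In HE2 both Sp3KO samples lay below both WT samples and overlapped with Sp1_deltaDBD, and the difference from WT was -0.92 (95% interval -1.69 to -0.14, adjusted p = 0.103). Over the 5 populations Mef2c differed from WT by -0.92 to -0.13 in Sp3KO. In Sp3KO ESC it was listed at 0 in both samples.

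The genes that shared each pattern were found by the correlation of log2(FPKM + 0.1) over the 15 group means among 12016 genes, as a description with no test. The points share the large steps between populations. Etv2 was most like Wnt3 (r = 0.95), Egflam (0.94) and Ptov1 (0.93), and Sox7 most like Fgd5, Hoxb2 and Hmcn1 (0.98 each). Sox17 was closest to Bmp6 (0.99), Pea15a and Fbn1 (0.98 each), Sox18 to Esam, an endothelial adhesion molecule (0.97), Abi3 (0.97) and Lrrc8a (0.96), and Mef2c to Rasgef1b (0.99), Ubash3b and Zc3h12c (0.98 each). Among the members, Sox7 and Sox17 were the most alike (0.96), followed by Sox17 with Sox18 (0.88) and Sox7 with Sox18 (0.81). Etv2 was closer to Sox7 (0.61) than to Sox18 (0.33) or Mef2c (0.14).

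Genes known to lie upstream of Etv2, BMP, WNT and mesoderm regulators, were measured in the same Flk1+ cells. Of 17 genes, 3 rose and 1 fell in Sp3KO, against 12.6% of all genes called in either direction, with a median log2 difference of 0.51, against 0 over all genes. In Sp1_deltaDBD none passed, against 5.54% of all genes, with a median of 0.10 against 0.02. These shares and medians over all genes hold for each list in Flk1+ cells. In Sp3KO Foxc2, a forkhead factor that acts with ETV2, was at 1.5 against 0.164 FPKM in WT and rose by 2.52 (adjusted p = 0.00337). The T-box factor Eomes was at 160 against 44.3 FPKM and rose by 1.86 (adjusted p = 0.0115), and Mesp1, a regulator of early mesoderm, was at 124 against 45.4 FPKM and rose by 1.44 (adjusted p = 0.00678). The BMP receptor gene Bmpr1a fell by 0.62 (adjusted p = 0.0170). Eomes was also higher in Sp1_deltaDBD, at 151 and 91.9 FPKM against 46.6 and 41.9 FPKM in WT, but did not pass there. Mesp1 was at 39.8 and 22.0 FPKM in Sp1_deltaDBD against 51.7 and 39.1 FPKM in WT, and did not pass either.

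Downstream, 10 of 19 targets and partners of ETV2 rose in Sp1_deltaDBD Flk1+ cells and 1, Eng, fell, with a median of 1.0. In Sp3KO 7 of 19 rose and none fell, with a median of 0.77. Cdh5, which encodes VE-cadherin, rose by 2.28 in Sp1_deltaDBD (10.3 against 1.85 FPKM, adjusted p = 0.000111) and by 1.43 in Sp3KO (5.13 FPKM, adjusted p = 0.00486). Tek rose by 2.19 and 1.33 (adjusted p = 0.000150 and 0.00724), and Rhoj, a small GTPase gene of endothelium, by 1.70 and 1.3 (adjusted p = 0.00151 and 0.00733). Erg, an endothelial ETS factor, rose by 1.84 in Sp1_deltaDBD (adjusted p = 0.00141). Robo4, an endothelial guidance receptor, rose by 1.91 in Sp3KO, from 0.165 to 0.906 FPKM (adjusted p = 0.00631). Etv2 itself was not called in Sp1_deltaDBD Flk1+ cells.

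Among 19 targets and partners of SoxF factors, 3 rose in Sp1_deltaDBD Flk1+ cells and 6 in Sp3KO, none fell, and the medians were 0.39 and 0.34. Tie1, an endothelial receptor kinase, rose by 2.34 and 1.84 (adjusted p = 0.00362 and 0.0117), and Rasip1, a regulator of vessel lumens, by 1.44 and 1.63 (adjusted p = 0.000296 and 0.000154). Cldn5, which encodes a tight junction protein, rose by 2.29 in Sp3KO, from 0.135 to 1.06 FPKM (adjusted p = 0.0243). The Notch receptor gene Notch4 rose by 1.49 there, from 0.164 to 0.641 FPKM (adjusted p = 0.0161). In HE1 of Sp1_deltaDBD, 3 of the 19 fell and none rose. Of all 14525 genes, 10.0% were called there in either direction, and 632 fell. The 3 that fell were the Notch pathway genes Notch4 (-1.75, adjusted p = 0.00690), Dll4 (-1.68, adjusted p = 0.00772) and Hey1 (-1.14, adjusted p = 0.0480). In HE1 of Sp3KO, 2 of the 19 fell and 1 rose, against 10.9% of all genes called. Notch4 (-1.3, adjusted p = 0.0359) and Hey1 fell, and Prox1 rose (1.34, adjusted p = 0.0189). In Progenitor of Sp3KO, 4 of the 19 rose, among them Hey1 (1.51, adjusted p = 0.0129), and none fell, against 8.65% of all genes called. In Progenitor of Sp1_deltaDBD, 1 of the 19 rose, Rasip1, and 1 fell, against 8.78% of all genes called. The gene that fell was Notch1, from 3.63 to 0.924 FPKM (-1.89, adjusted p = 9.63e-06).

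**Figure D4:**
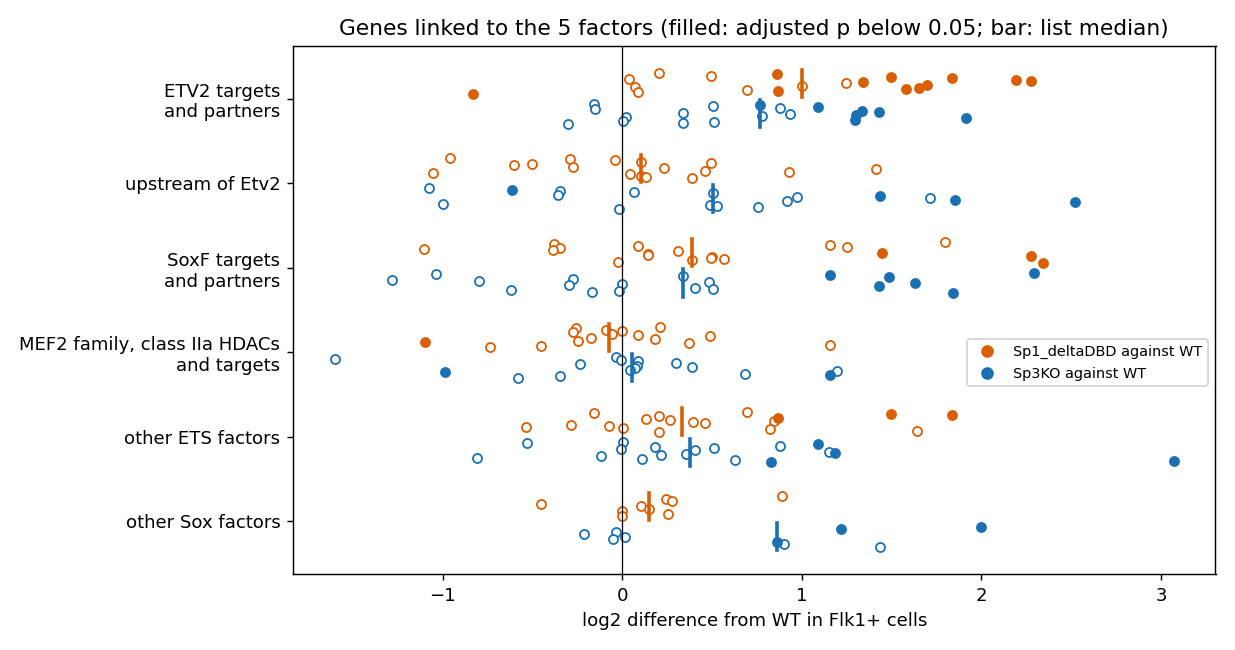
Differences from WT in Flk1+ cells on the log2(FPKM + 0.1) scale (horizontal axis) for each gene of the 6 lists of related genes (vertical axis, 1 row per list) in Sp1_deltaDBD and Sp3KO, with filled points for an adjusted p under 0.05 and a bar at each list's median. The median of the ETV2 targets is 1.0 in Sp1_deltaDBD and 0.77 in Sp3KO, and that of the MEF2 list is -0.07 and 0.06.

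The MEF2 family, its class IIa histone deacetylases and MEF2 targets were also read in Flk1+ cells, where Mef2c itself was low. Of 16 genes tested, 0 rose and 1 fell in Sp1_deltaDBD, with a median of -0.07, and 1 rose and 1 fell in Sp3KO, with a median of 0.06. The gene that fell in both was Klf4 (-1.10 and -0.99, adjusted p = 0.0489 and 0.0474). The one that rose in Sp3KO was Dll4, from 0.0117 to 0.148 FPKM (1.16, adjusted p = 0.0495). In HE2 of Sp3KO, Mef2a, the close relative of Mef2c, fell by 0.89 from 22.9 to 12.3 FPKM (adjusted p = 0.00808).

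Other ETS and Sox factors could share DNA motifs with the members. Of 18 other ETS factors, 3 rose in Sp1_deltaDBD Flk1+ cells and 4 in Sp3KO, and the medians were 0.33 and 0.38, against 5.54% and 12.6% of all genes called and medians over all genes of 0.02 and 0. The 3 in Sp1_deltaDBD, Fli1, Erg and Elk3, were also counted among the ETV2 targets, as was Fli1 in Sp3KO. Fli1 rose by 1.5 and 1.09 (adjusted p = 0.00480 and 0.0221), Fev by 3.07 in Sp3KO from 0.0833 to 1.28 FPKM (adjusted p = 0.00195), and the FGF-responsive Etv5 by 1.19 in Sp3KO (46.7 against 20.4 FPKM, adjusted p = 0.0398). Of 9 other Sox factors tested, 0 passed in Sp1_deltaDBD, with a median of 0.15, and 3 rose in Sp3KO, with a median of 0.86. Sox4 rose by 1.22 from 13.9 to 32.5 FPKM (adjusted p = 0.00266), Sox13 by 0.86 (adjusted p = 0.0219), and Sox2 by 2.0 from 0.188 to 0.940 FPKM (adjusted p = 0.0383).

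Markers of other cell types moved with the genotype in Flk1+ cells and are given beside the Etv2 and Sox18 results. In bulk samples, fewer cells of a type and less RNA per cell cannot be told apart. The summed level of 7 of 8 mesoderm markers was 342 to 357 FPKM in WT, 256 to 333 FPKM in Sp1_deltaDBD and 509 to 561 FPKM in Sp3KO, and 3 of the 7 (Mesp1, Eomes and Tbx6) rose in Sp3KO. Hand1, of the same list, was at 160 FPKM in WT, 39.5 FPKM in Sp1_deltaDBD and 50.8 FPKM in Sp3KO, and Foxf1 at 37.0, 18.3 and 19.4 FPKM, and neither passed. The 10 endothelial markers summed to 70.0 to 74.5 FPKM in WT, 82.4 to 127 FPKM in Sp1_deltaDBD and 87.9 to 92.5 FPKM in Sp3KO, and 6 and 5 of them rose. These lists share genes with those above, so their counts are not separate. Of the markers that rose, Cdh5, Pecam1, Esam, Tie1 and Cldn5 are also among the ETV2 or SoxF targets. Mesp1 and Eomes are also among the genes upstream of Etv2. The 8 ESC markers summed to 35.7 to 46.9, 24.1 to 56.1 and 97.3 to 100 FPKM. Most of the excess in Sp3KO lay in Pou5f1, at 83.0 FPKM against 23.5 FPKM in WT (adjusted p = 0.106). Zfp42 was at 2.6 against 1.21 FPKM, and Nanog at 9.03 against 10.9 FPKM. Of the 8 markers in Sp3KO, Sox2 rose and Klf4 fell, with a list median of 0.40 against 0 over all genes. Among the ESC markers Sox2, Tfcp2l1 and Dppa3 stayed under 1 FPKM in all 6 samples. The part of these shifts in the Etv2 and Sox18 results was not tested.

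The 10 blood markers summed to 14.7 to 19.0 FPKM in WT Flk1+ cells, 14.2 to 28.0 FPKM in Sp1_deltaDBD and 7.78 to 11.0 FPKM in Sp3KO, where Gata1 and Hbb-bh1 fell. The 6 of 8 mesenchymal and feeder markers in the table summed to 12 to 17.0, 3.55 to 3.97 and 3.87 to 4.36 FPKM. Sox7 and Sox17 are also made in endoderm. Of 13 endoderm markers 5 had a row, which summed to 70.3 to 72.9, 69.1 to 82.8 and 93.5 to 94.0 FPKM, and Cubn stayed under 1 FPKM. In each mutant 1 of the 5 rose and none fell. That gene was Cer1, at 0.151 FPKM in WT, 2.65 FPKM in Sp1_deltaDBD and 1.74 FPKM in Sp3KO. The 8 cardiac markers, a lineage that also makes Mef2c, summed to 37.0 to 45.5, 41.3 to 47.4 and 23.8 to 40.1 FPKM, with Nkx2-5, Tnnt2 and Myh6 under 1 FPKM, and none passed.

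The endothelial markers were also read in HE1, HE2 and Progenitor, where Sox18 was lower in Sp1_deltaDBD than in WT and passed only in Progenitor. They summed to 1560 to 1880 FPKM in Sp1_deltaDBD HE1, within the WT range of 1380 to 2230 FPKM. Within this sum single markers went both ways. Esam, the gene most like Sox18, was at 44.7 against 101 FPKM in WT, and Ramp2 at 185 against 338 FPKM. Cdh5 was at 535 against 452 FPKM and Emcn at 36.6 against 11.3 FPKM, and of the 10 markers only Emcn passed. In HE2 the endothelial markers summed to 670 to 924 FPKM against 804 to 1180 FPKM in WT. In Progenitor they summed to 131 to 159 FPKM against 172 to 232 FPKM. Their median log2 difference was -0.01 in HE1, -0.33 in HE2 and -0.51 in Progenitor, and no marker passed in HE2 or Progenitor. The fall of Sox18 in Progenitor thus went with a lower endothelial sum, whose part was not tested. The 6 of 7 megakaryocyte markers in the table, a lineage that also makes Mef2c, summed to 53.8 to 75.5 FPKM in Sp1_deltaDBD Progenitor, against 30.8 to 44.4 FPKM in WT and 33.6 to 37.9 FPKM in Sp3KO. Mef2c did not pass in either mutant in that population.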

How the data were processed

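Total RNA of 30 samples was sequenced after ribosomal RNA depletion with a stranded kit. According to the methods, the authors aligned paired reads to mm10 with HISAT2 2.1.0, estimated FPKM with StringTie 1.3.3, dropped genes that passed 1 FPKM in no sample, and quantile normalised what was left. The deposited values are FPKM, so the depth per sample is unknown and no counting error can be given. The annotation is not given in the sources used here. Quantile normalisation gives every sample the same distribution, which differed by at most 0.192 FPKM at a rank, so that a change of total RNA cannot be seen.

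Values were taken as log2(FPKM + 0.1), and fold changes of low genes are understated on this scale. The 14525 genes that were above 1 FPKM in a sample after normalisation were fitted with limma 3.58.1 (R 4.3.3), with 15 group means, all samples, a mean-variance trend and 15 residual degrees of freedom. Moderated tests were two-sided and adjusted by Benjamini-Hochberg over all genes within each of 27 comparisons, and an adjusted p under 0.05 was a call. P-values measure the spread between 2 replicates per group, pooled over groups.

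The 5 members and all gene lists were chosen with earlier results of these data known. Genes named besides the members were the 3 most alike to each member, up to 4 genes of each list with the largest called difference in each mutant, in Flk1+ cells and elsewhere, and marker or gate genes. Alternatives were a pseudocount of 1, no filter, a filter at 3 FPKM, trimmed-mean recentring, a replicate block, a culture correlation, separate fits per comparison, a rule of a 2-fold change with a mean above 3 FPKM, and leaving out each sample. Weights per genotype were added after the replicate spread had been seen.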

Additional observations from a re-analysis of the deposited data

Results flagged for a closer look

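In 2 comparisons the change of Sox18 from Flk1+ cells to HE1 differed between a mutant and WT by the test of the difference of steps (limma, adjusted p under 0.05). Sox18, a SoxF factor of endothelium, had a step that differed from that of WT, mutant minus WT, by -3.26 on the log2 scale (SE 0.68, adjusted p = 0.0182) in Sp1_deltaDBD and by -2.72 (SE 0.68, adjusted p = 0.0303) in Sp3KO. Both share the 4 WT samples of the step, and the difference in Sp1_deltaDBD was lost in 5 of the 8 fits that left out 1 sample of its groups, and that in Sp3KO in all 8 and with a pseudocount of 1.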

How the results depend on the processing

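Of 135 values of a member in a comparison, 26 were called, and no called value changed sign under any alternative. The counts of called values by comparison were 4 for Sp1_deltaDBD against WT, 2 for Sp3KO against WT, 3 for Sp3KO against Sp1_deltaDBD, 15 for WT steps and 2 for step differences. With a pseudocount of 1 they were 2, 3, 5, 14 and 1, with a fit of only the populations compared 1 for Sp1_deltaDBD against WT, under the 2-fold rule 2 for Sp1_deltaDBD against WT and 6 between the mutants, and with weights per genotype (WT 0.889, Sp1_deltaDBD 0.634, Sp3KO 1.78; chosen after seeing the data) likewise 2 and 6. A culture correlation of 0.346 among HE1, HE2 and Progenitor samples gave 6 between the mutants. Leaving out 1 sample gave 2 to 5, 1 to 3, 2 to 4, 13 to 15 and 0 to 2. Sp1_deltaDBD against WT had 2 calls without Progenitor WT replicate 1 or Progenitor Sp1_deltaDBD replicate 2, and Sp3KO against WT had 1 without Flk1 WT replicate 2 or Flk1 Sp3KO replicate 1. The step differences had no call without Flk1 WT replicate 1, Flk1 WT replicate 2 or HE1 WT replicate 1. The fit of only the populations compared refilters the genes and gave 117 values. No filter, a filter at 3 FPKM and recentring (largest shift of a sample 0.0801, log2) kept all 26 calls and added 0, 2 and 1.

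Same-numbered samples of a population had correlated deviations of -0.0834 to 0.481 over 10052 genes, with 0.255 to 0.481 between WT and Sp1_deltaDBD in the 5 populations, 0.00318 to 0.194 between WT and Sp3KO and -0.0834 to 0.182 between the mutants. A group has 2 numbers and not every correlation passed 0.1, so the replicate numbers were not taken as pairs. Within a genotype, same-numbered samples of HE1, HE2 and Progenitor correlated at 0.382 to 0.458 in WT and 0.451 to 0.649 in Sp1_deltaDBD. In Sp3KO these correlations were 0.0264 to 0.161. The main fit treats such samples as independent, and the culture correlation allows for their link. With the replicate block, calls were 5 for Sp3KO against Sp1_deltaDBD and 4 for step differences, 31 in all, of which 24 were among the 26. The 2 calls that the block ended were Sox17 in Sp1_deltaDBD Progenitor (adjusted p = 0.0629) and Sox18 between the mutants in HE2 (adjusted p = 0.0643). Etv2, higher in Sp3KO than in Sp1_deltaDBD with an adjusted p of 0.0557 in Flk1+ cells and 0.0504 in HE1, was called in both with the block (0.0228 and 0.0199), as it was with a pseudocount of 1, the culture correlation, the weights per genotype (0.0368 and 0.0350) and the fit of only the populations compared.

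Depth is unknown, which limits values under about 1 FPKM, such as Sox17 in Progenitor or Mef2c in ESC and Flk1+ cells.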
